A study of Homo sapiens with 42 samples.

Results

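The clustered protocadherins are 53 protein-coding genes on human chromosome 5 whose RefSeq symbols begin with PCDHA, PCDHB or PCDHG, out of 19970 protein-coding genes in the table. They were chosen by symbol and position, with earlier results of these data known. They are 15 alpha genes, 16 beta genes and 22 gamma genes, all read from the plus strand. From the first gene start to the last gene end they span chr5:140786140-141512975 in GRCh38.p14, or 727 kb, with a gap of 39.0 kb between the alpha and beta genes and a gap of 81.1 kb between the beta and gamma genes. The second gap also holds TAF7, a subunit of a general transcription factor, and SLC25A2, a mitochondrial carrier. Peaks were assigned to the span by their summits.

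Open chromatin was mapped by ATAC-seq, in which the Tn5 transposase inserts adapters where DNA is accessible, in 42 samples of 7 human cancer cell lines labelled as wild type. A375 comes from a melanoma and 92-1 from a uveal melanoma, DU4475 from an invasive breast carcinoma, 22RV1 from a prostate adenocarcinoma and HCT116 from a colorectal adenocarcinoma. RD comes from a rhabdomyosarcoma, a tumour of muscle type, and MV411 from an acute myeloid leukemia. Each line was treated for 4 h with the solvent DMSO or with FHT-1015, which inhibits both SMARCA4 and SMARCA2, with 3 samples labelled as biological replicates per line and treatment. SMARCA4 and SMARCA2 are the ATP-driven motors of the SWI/SNF complexes, which slide and evict nucleosomes. The labels do not say what sets the replicates of a line apart (cultures, passages or days), so p-values measure the spread between these samples.

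Clustered protocadherins are cell-surface adhesion proteins that bind like copies of themselves on a neighbouring cell. They are best known from neurons, where each cell reads a small, largely random set of the variable genes and so gains an identity that lets its branches recognise each other. Each alpha or gamma variable exon has a promoter of its own and is spliced to constant exons shared by the group, while beta genes stand alone. Choice of a variable promoter is known to involve loss of DNA methylation, the architectural protein CTCF and the cohesin ring, which bring the promoter to enhancers such as HS5-1 behind the alpha genes. The C-type genes PCDHAC1, PCDHAC2, PCDHGC3, PCDHGC4 and PCDHGC5 lie at the ends of the alpha and gamma groups and are known to be read more steadily and less at random than the others.

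Most variable promoters are known to share a conserved element around the letters CGCT. RefSeq promoter sequences (250 bases before to 50 bases after the start, GRCh38.p14) were matched for 47 of the 53 genes. The letters CGCT stood on the plus strand of the gene in the 100 bases before the start in 44 of these 47 promoters (93.6%), against 35.1% of the promoters of 15811 protein-coding genes read on their own strand. Counted on both strands of all 300 bases, CGCT was in 97.9% of the cluster promoters and in 81.0% of all promoters. In the 33 promoters with exactly 1 copy in those 100 bases, CGCT began 11 to 95 bases before the start, with a median of 54. These letters can overlap other motifs, and a match describes letters only.

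The 100 bases before the start are shown for 12 genes, each on the plus strand and with CGCT in capitals. The peak calls and tests below do not use these letters. The first is a variable alpha gene of A375 and 22RV1 at chr5:140806968-140807067.
PCDHA4: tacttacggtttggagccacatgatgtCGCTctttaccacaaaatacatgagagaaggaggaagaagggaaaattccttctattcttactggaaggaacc
PCDHA11, the variable alpha promoter open in all A375 samples with and without the inhibitor, lies at chr5:140868857-140868956.
PCDHA11: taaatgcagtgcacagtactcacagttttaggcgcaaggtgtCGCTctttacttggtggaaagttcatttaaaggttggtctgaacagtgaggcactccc
The C-type promoters follow, PCDHAC1 at chr5:140926199-140926298, PCDHAC2 at chr5:140966376-140966475 and PCDHGC3 at chr5:141475866-141475965.
PCDHAC1: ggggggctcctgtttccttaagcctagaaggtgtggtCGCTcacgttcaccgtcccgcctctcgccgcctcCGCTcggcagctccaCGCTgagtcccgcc
PCDHAC2: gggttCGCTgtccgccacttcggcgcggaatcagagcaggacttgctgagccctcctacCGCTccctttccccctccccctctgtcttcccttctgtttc
PCDHGC3: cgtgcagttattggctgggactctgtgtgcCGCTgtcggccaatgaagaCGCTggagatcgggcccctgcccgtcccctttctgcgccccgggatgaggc
The beta promoters shown are PCDHB1 at chr5:141051274-141051373, PCDHB8 at chr5:141177690-141177789 and PCDHB13 at chr5:141213819-141213918.
PCDHB1: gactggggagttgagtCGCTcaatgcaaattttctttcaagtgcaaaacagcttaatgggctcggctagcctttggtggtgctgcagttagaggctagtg
PCDHB8: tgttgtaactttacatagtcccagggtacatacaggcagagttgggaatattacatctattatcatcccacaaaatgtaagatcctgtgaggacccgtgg
PCDHB13: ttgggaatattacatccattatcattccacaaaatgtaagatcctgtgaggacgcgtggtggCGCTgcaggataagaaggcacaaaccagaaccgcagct
The variable gamma promoters are PCDHGB1 at chr5:141349999-141350098, PCDHGB2 at chr5:141360036-141360135, PCDHGA7 at chr5:141382642-141382741 and PCDHGB7 at chr5:141417577-141417676.
PCDHGB1: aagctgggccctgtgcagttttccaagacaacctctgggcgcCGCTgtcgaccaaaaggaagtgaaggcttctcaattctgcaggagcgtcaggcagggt
PCDHGB2: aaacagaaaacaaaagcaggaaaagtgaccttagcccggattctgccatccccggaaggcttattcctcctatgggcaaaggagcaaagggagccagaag
PCDHGA7: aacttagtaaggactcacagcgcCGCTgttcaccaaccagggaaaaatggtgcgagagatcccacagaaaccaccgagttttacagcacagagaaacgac
PCDHGB7: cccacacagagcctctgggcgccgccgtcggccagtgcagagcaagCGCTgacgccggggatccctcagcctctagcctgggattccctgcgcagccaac
PCDHB8 and PCDHGB2 held no CGCT in this stretch, and both were open in all 3 DMSO samples of 1 line. For PCDHGB2 the sequence and the peak calls rest on different starts. Its stretch lies before a RefSeq promoter start downstream of chr5:141359994, the gene start used for peak calls. The 100 bases before that gene start are not shown.

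The median number of CG dinucleotides, the sites of DNA methylation, was 7 in the 47 cluster promoters (range 2 to 27) and 22 in all promoters. Of the C-type promoters with a sequence, PCDHAC1 had 27, PCDHGC4 had 23, PCDHGC3 had 18 and PCDHAC2 had 15. The ranges overlapped, since PCDHGB6, which is not C-type, had 16, and no test was run. Among the other genes, the 27 promoters with a peak in at least 1 DMSO sample had a median of 8 CG dinucleotides, and the 16 without one had a median of 6.

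The deposited lists were lenient, with 114291 to 431956 peaks per sample, so results rest on strict peaks, those with a −log10 q of at least 5 in the authors' lists. There were 1412 to 121774 strict peaks per sample. Some libraries stood apart. In 92-1, FHT-1015 replicates 2 and 3 had 2037 and 1412 strict peaks, against 14266 to 66350 in the DMSO samples. In A375, DMSO replicate 3 had 26365 strict peaks against 60943 and 65602 in the other DMSO samples, and FHT-1015 replicate 2 had 67237 against 27964 and 32095. Sequencing depth is not in the lists, and the part of depth in the results below was not tested beyond the alternatives given with them. The promoters of lineage genes were partly open as the labels imply. PTPRC, a leukocyte gene, was open in 3 of 3 DMSO samples of MV411 and in no DMSO sample of another line, and the muscle regulator MYOG in 3 of 3 of RD only. In the melanoma line A375 the melanocyte genes TYR and MLANA had no strict promoter peak and SOX10 had one in 1 of 3 DMSO samples, and in HCT116 the intestinal regulator CDX2 had one in 1 of 3. In DMSO samples SOX10 had none in 92-1, the prostate gene KLK3 none in 22RV1, the breast regulator GATA3 none in DU4475 and the granule enzyme gene MPO none in MV411. SOX10 and MPO were searched at both gene ends.

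In DMSO, protocadherin promoters were open in few samples, and which ones were open differed between lines. A promoter was called where a strict summit lay within 500 bp of the gene start. Of the 53 promoters, 35 were called in at least 1 of 21 DMSO samples, 12 were called in all 3 DMSO samples of at least 1 line, and 18 were called in 1 line only. The shares of all promoters meeting these rules over the 7 lines were not computed. Line by line, cluster promoters called in all 3 DMSO samples numbered 9 in 22RV1, 3 in A375 and 2 each in 92-1, RD and MV411. They numbered 1 each in HCT116 and DU4475. Of all 15811 promoters, 9093 were so called in 22RV1, 6549 in A375, 2602 in 92-1, 8279 in RD and 8561 in MV411. In HCT116 5621 were, and in DU4475 8929. Among the merged regions described below that were called in a DMSO sample, 54.4% of those in the span were in 1 line only. Genome-wide this share was 70.1%. The share of cluster promoters called in a DMSO sample averaged 31.4% in 22RV1, 19.5% in A375, 10.1% in 92-1, 7.55% in RD, 6.92% in MV411, 3.77% in HCT116 and 2.52% in DU4475. The share of all protein-coding promoters was 62.7%, 51.5%, 35.3%, 56.8%, 57.9%, 44.8% and 58.5% in the same lines. The cluster therefore lay below the average gene in each of the 7 lines, by the least in 22RV1 and by the most in DU4475 as a ratio. These levels are described without a test, since the lines differed in list length.

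**Figure D1:**
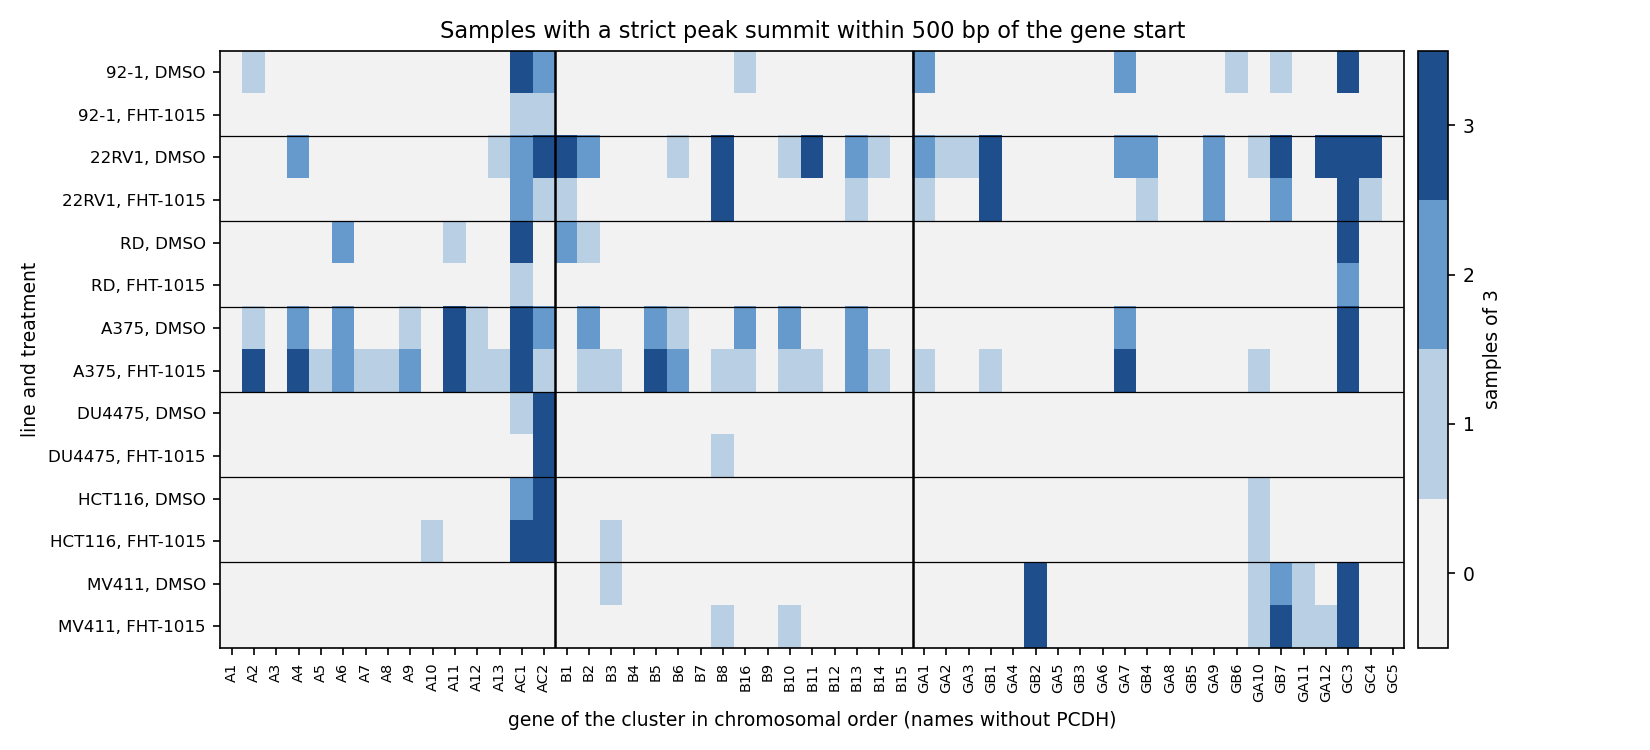
Number of samples, of 3, with a strict peak summit within 500 bp of each gene start, by cell line and treatment (rows) and by gene in chromosomal order (columns); vertical lines part alpha, beta and gamma genes. PCDHAC1, PCDHAC2 and PCDHGC3 form the columns open in several lines, 22RV1 has called promoters in all 3 groups of genes, and MV411 has none in the alpha group.

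Of the C-type genes, PCDHGC3 was the promoter called most often, in 15 of 21 DMSO samples. It was called in 3 of 3 DMSO samples of 92-1, 22RV1, RD, A375 and MV411 and in none of DU4475 and HCT116. In MV411 its fold enrichment over local background in the authors' lists was 16.6, 18.5 and 19.1 in DMSO and 10.3, 13.4 and 9.46 with FHT-1015. In 22RV1 it was 14.8, 16.6 and 18.6 in DMSO and 7.42, 7.92 and 5.91 with FHT-1015. The enrichments with FHT-1015 lay below all DMSO enrichments in both lines. By rank in its own lenient list, the MV411 peak stood at percentiles 88.8, 91.9 and 95.1 in DMSO. With FHT-1015 it stood at 87.9, 91.5 and 86.8, which overlapped. In 22RV1 the percentiles were 97.7, 96.6 and 96.3 in DMSO and 94.5, 91.5 and 90.9 with FHT-1015, without overlap. The share of all peaks with such drops was not computed. Fold enrichment is each peak's own value in its list, and the lists differ in background, so these values are a description.

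In 92-1 the enrichment of PCDHGC3 was 15.3, 8.66 and 7.83 in DMSO. With FHT-1015 it was 5.15 and 2.90 in replicates 1 and 2, and no peak was listed in replicate 3. None of these passed the strict threshold, the first with a −log10 q of 4.07, and replicates 2 and 3 had the shortest strict lists of the series. In A375 the groups overlapped, at 9.91, 11.8 and 5.60 in DMSO and 6.99, 11.3 and 9.79 with FHT-1015. In RD they overlapped too, at 6.51, 7.07 and 6.93 against 5.78, 3.49 and 9.71, and 1 FHT-1015 sample fell below the strict threshold.

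PCDHAC1, the first C-type gene of the alpha group, was called in 14 DMSO samples of 6 lines and in no sample of MV411. Its main region lay 360 bp after the start rather than before it. RD had enrichments of 12.6, 10.7 and 7.22 in DMSO and 4.80, 3.96 and 10.3 with FHT-1015, and A375 had 8.51, 9.76 and 6.36 against 6.14, 13.2 and 6.43. The groups overlapped in both lines. In HCT116 the values were 5.63, 10.3 and 11.8 in DMSO and 9.38, 14.4 and 7.37 with FHT-1015, again overlapping.

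PCDHAC2 was called in 13 DMSO samples, and was the promoter open in all 3 DMSO samples of DU4475 and of HCT116, both epithelial lines in which PCDHGC3 had no strict peak. Its enrichment in DU4475 was 8.80, 9.17 and 6.36 in DMSO and 7.05, 7.73 and 6.83 with FHT-1015, which overlapped. In 22RV1 it was 13.1, 9.68 and 13.4 in DMSO and 3.64, 8.41 and 3.93 with FHT-1015, without overlap. Of those 3 FHT-1015 samples, 1 passed the strict threshold. The percentiles of these 22RV1 peaks in their lists were 97.0, 89.0 and 93.4 in DMSO. With FHT-1015 they were 59.6, 92.4 and 71.7, which overlapped. No peak within 500 bp of the PCDHAC2 start was listed for any MV411 DMSO sample, even in the lenient lists. PCDHGC4 was called in 22RV1 only, with enrichments of 7.17, 11.3 and 10.6 in DMSO and 3.71, 4.48 and 5.41 with FHT-1015, without overlap. Its percentiles were 89.8, 90.7 and 89.5 in DMSO and 60.7, 73.9 and 91.3 with FHT-1015, with overlap. PCDHGC5 was called in no sample.

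**Figure D2:**
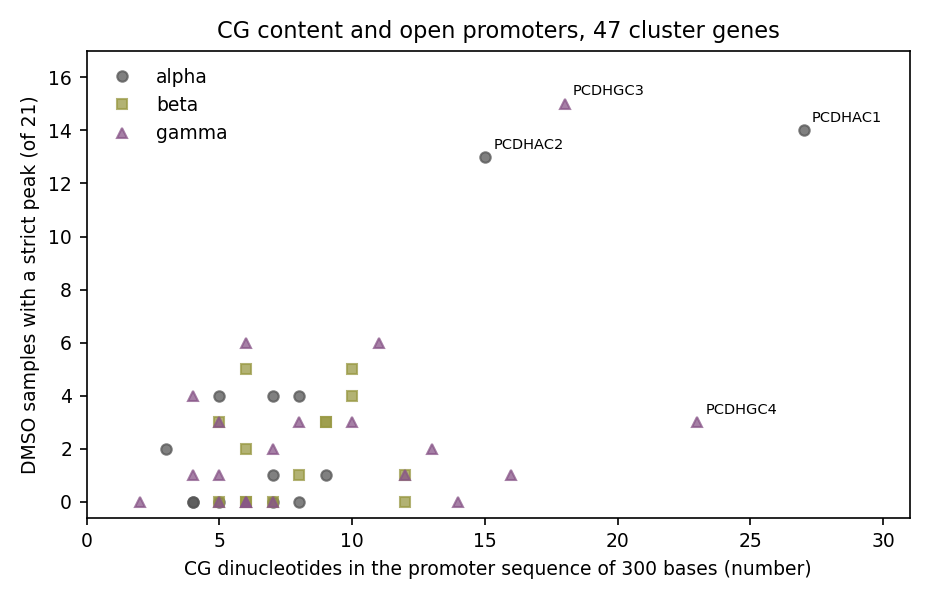
CG dinucleotides in the RefSeq promoter sequence of 300 bases (x axis) and number of DMSO samples, of 21, with a strict peak within 500 bp of the start (y axis), 1 point per gene with a sequence. The C-type genes have 15 or more CG dinucleotides, as does PCDHGB6 with 16, and PCDHAC1, PCDHAC2 and PCDHGC3 are called in 13 to 15 samples, while the other genes are called in 6 or fewer.

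Among variable alpha genes, A375 had the widest set, with 8 alpha promoters called in at least 1 DMSO sample, C-type genes included. PCDHA11 was called in 3 of 3 DMSO samples there and in 3 of 3 with FHT-1015; it was singled out after its values were seen, as were PCDHB5, PCDHB8, PCDHB11, PCDHGB1, PCDHGB2, PCDHGA12 and PCDHA2 below. PCDHA4 was called in 2 DMSO samples of A375 and 2 of 22RV1, and in 3 FHT-1015 samples of A375. Its enrichment in A375 was 8.29, 8.70 and 4.07 in DMSO and 6.82, 9.62 and 9.03 with FHT-1015, with overlap. The low DMSO value is that of replicate 3, which had the shortest strict list of the A375 samples.

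Of the beta genes, 11 of 16 were called in a DMSO sample and 3 were called in all 3 DMSO samples of a line, which was 22RV1 each time: PCDHB1, PCDHB8 and PCDHB11. PCDHB1 stands apart from the other beta genes at the start of the group, and its enrichment in 22RV1 was 5.88, 7.10 and 5.63 in DMSO. With FHT-1015 it was 3.69 and 5.81 in 2 samples, and no peak was listed in the third. PCDHB2 and PCDHB13 were called in 2 DMSO samples each of 22RV1 and A375, and PCDHB2 in 1 of RD. No beta promoter was called in a DMSO sample of DU4475 or HCT116.

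Of the gamma genes, 15 of 22 were called in a DMSO sample, and 12 of these 15 in 22RV1. PCDHGB1, PCDHGB7, PCDHGA12, PCDHGC3 and PCDHGC4 were called in all 3 DMSO samples of 22RV1. PCDHGB2 was called in 3 of 3 DMSO and 3 of 3 FHT-1015 samples of MV411 and in no sample of another line. PCDHGB7 was called in 2 of 3 DMSO samples of MV411, with enrichments of 3.13, 10.4 and 6.34, and in 3 of 3 with FHT-1015, with 7.04, 8.44 and 5.52. The groups overlapped. PCDHGA7 was called in 2 DMSO samples each of 92-1, 22RV1 and A375, and in 3 FHT-1015 samples of A375.

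Strict peaks in the whole span were fewer with FHT-1015 in 4 lines without overlap between groups, while A375 and HCT116 had a higher mean. In 92-1 there were 25, 13 and 6 strict peaks in DMSO and 5, 0 and 0 with FHT-1015. In 22RV1 there were 21, 29 and 28 against 12, 15 and 14, and in RD there were 15, 17 and 12 against 5, 4 and 9. In MV411 there were 13, 17 and 16 against 11, 8 and 9. All treated samples lay below all DMSO samples in these 4 lines.

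In DU4475 there were 10, 11 and 11 strict peaks in DMSO and 7, 10 and 6 with FHT-1015, touching at 10. In HCT116 there were 6, 5 and 5 against 6, 8 and 6, and in A375 there were 36, 36 and 8 against 21, 71 and 25, both overlapping. On the same log2 scale, span and genome differed by −0.45 and −0.43 in DU4475, where the whole lists did not overlap. They differed by 0.27 and −0.10 in HCT116 and by 0.58 and −0.27 in A375, where the whole lists overlapped. The exact permutation test of 3 against 3 within a line gave its smallest possible p, 0.1 (two-sided), in the 4 lines without overlap, and 0.175 after Benjamini-Hochberg adjustment over 7 lines.

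Over the 7 lines, strict peaks in the span were fewer with FHT-1015 by a mean of −0.75 on the log2(n + 1) scale (two-sided permutation test within lines, p = 0.00425, adjusted over the 6 quantities tested 0.0127, lower in 5 of 7 lines). Alpha peaks differed by −0.83 (permutation p = 0.00311, adjusted 0.0127) and gamma peaks by −0.61 (p = 0.0119, adjusted 0.0239). Beta peaks differed by −0.23 (permutation p = 0.403, adjusted 0.484). Without 92-1, which held the 2 shortest strict lists, the span differed by −0.39 (permutation p = 0.0453), alpha by −0.63 (p = 0.0260) and gamma by −0.35 (p = 0.118). In the lenient lists taken whole the span differed by −0.20 (permutation p = 0.116), and among the 10000 strongest peaks of each list by −0.13 (p = 0.476).

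Strict peaks of the whole genome fell as well, with a log2 difference of −0.96 (permutation p = 2.0e-05, lower in 7 of 7 lines). In the lenient lists the genome differed by −0.19 (permutation p = 0.0790, lower in 5 of 7 lines), and in thinned lists of 6 lines by −0.63 (p = 6.0e-05). Cluster peaks per 10000 strict peaks of the same sample differed by 0.062 (permutation p = 0.885, adjusted 0.885), lower in 4 lines and higher in 3. This value rested on which lines were included: it was 0.66 without 92-1 (permutation p = 0.05) and −0.56 without A375 (p = 0.0865). The share went from 3.83 ± 0.33 to 3.39 ± 0.21 (SD, n = 3) in 22RV1, from 3.23 ± 0.32 to 2.82 ± 0.40 in RD and from 1.99 ± 0.38 to 1.87 ± 0.29 in DU4475, with overlap in each. It went from 1.37 ± 0.26 to 1.75 ± 0.28 in MV411 and from 2.21 ± 0.38 to 2.95 ± 0.46 in HCT116, again with overlap.

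In strict peaks, A375 and 92-1 were the lines where this share did not overlap. In A375 it was 5.91, 5.49 and 3.03 per 10000 strict peaks in DMSO and 7.51, 10.6 and 7.79 with FHT-1015, a mean of 4.81 ± 1.55 against 8.62 ± 1.69 (SD, n = 3; exact permutation p = 0.1, the smallest possible, adjusted 0.28). In the lenient lists it was 4.57 ± 0.60 against 5.70 ± 0.45, also without overlap, and in lists thinned to a common background 4.71 ± 1.96 against 7.97 ± 1.86, with overlap. In 92-1 the strict share was 3.77, 5.12 and 4.21 in DMSO and 2.47, 0 and 0 with FHT-1015. The values of 0 come from lists of 2037 and 1412 strict peaks, where the mean DMSO share would give 0.889 and 0.616 cluster peaks. In the lenient lists the 92-1 share was 2.88 ± 0.38 against 2.57 ± 0.19 (SD, n = 3), with overlap. Of the 21 pairs of lines, none differed in the effect on this share after adjustment (exact permutation test, lowest adjusted p = 0.0525), nor in the effect on the number of peaks (lowest adjusted p = 0.0788).

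**Figure D3:**
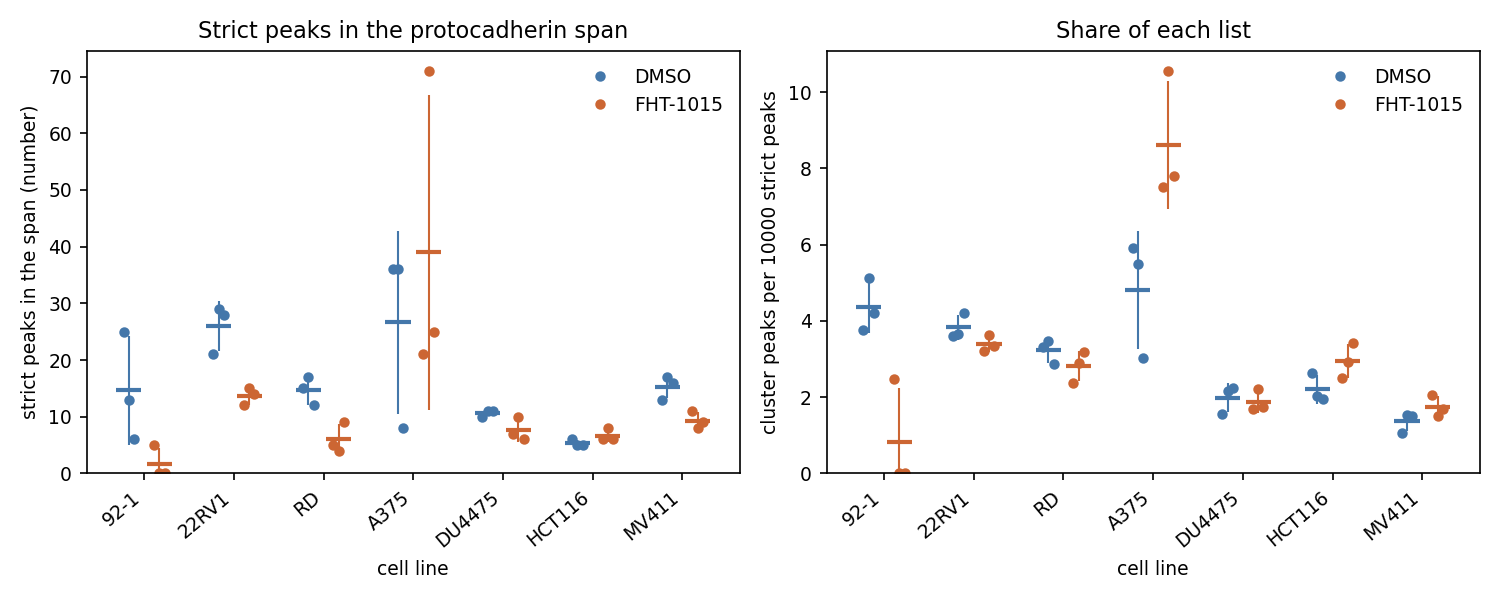
Strict peaks with a summit in the protocadherin span (left, number) and the same per 10000 strict peaks of the sample (right), by cell line; points are samples, horizontal bars the means of 3 samples and vertical bars the SD, drawn no lower than 0. DMSO and FHT-1015 points do not overlap on the left in 92-1, 22RV1, RD and MV411, and on the right in A375, where FHT-1015 is higher, and 92-1, where it is lower but 2 values of 0 come from lists of 2037 and 1412 strict peaks, and where the lenient lists overlap.

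The number of protocadherin promoters called per sample was lower with FHT-1015, without overlap, in 22RV1, 92-1 and RD and overlapped in the other 4 lines. In 22RV1 it was 14, 18 and 18 in DMSO and 5, 8 and 8 with FHT-1015: 19 of the 53 promoters were called in fewer FHT-1015 than DMSO samples, and 0 in more, where 13.4% and 4.22% of all promoters were. In 92-1 it was 8, 5 and 3 against 2, 0 and 0, and in RD 3, 6 and 3 against 1, 0 and 2. In 92-1, 9 promoters were called in fewer FHT-1015 samples and 0 in more (42.3% and 1.9% of all promoters), and in RD 6 and 0 (25.8% and 0.651%). In A375 it was 16, 12 and 3 against 8, 26 and 11, where 17 promoters were called in more FHT-1015 samples and 4 in fewer, where 11.5% and 6.08% of all promoters were. The 17 included PCDHA2, called in 1 DMSO and 3 FHT-1015 samples, and PCDHB5, called in 2 and 3.

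In MV411 the number was 3, 5 and 3 in DMSO and 6, 4 and 4 with FHT-1015: 4 promoters were called in more FHT-1015 samples and 1 in fewer, where 2.26% and 9.65% of all promoters were. In HCT116 it was 1, 2 and 3 against 3, 4 and 2, with 3 promoters in more samples and 0 in fewer (13% and 7.88% of all promoters). In DU4475 it was 1, 1 and 2 against 1, 2 and 1, with 1 promoter in more and 1 in fewer (1.23% and 4.59%). Over the 7 lines the mean difference was −1.52 promoters (permutation p = 0.240, adjusted 0.361), and without A375 it was −2.56 (permutation p = 0.00518). Leaving out only FHT-1015 replicate 2 of A375 gave −2.31 (permutation p = 0.0213).

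The share of cluster promoters called in a sample of 22RV1 was 31.4% in DMSO and 13.2% with FHT-1015, while that of all protein-coding promoters was 62.7% and 57.3%. In RD it was 7.55% and 1.89%, with 56.8% and 43.5% for all promoters. In A375 it was 19.5% and 28.3%, with 51.5% and 53.3% for all promoters. In 92-1 it was 10.1% and 1.26%, with 35.3% and 16.3% for all promoters, and in HCT116 3.77% and 5.66%, with 44.8% and 47.1%. In these 5 lines both shares moved the same way. In MV411 they moved apart, with 6.92% and 8.81% for the cluster and 57.9% and 53.8% for all promoters. In DU4475 the cluster share was 2.52% in both groups, with 58.5% and 57.0% for all promoters. The difference between cluster and genome was not tested.

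The cluster share depended on the list. In the lenient lists it was 56.6% in DMSO and 47.8% with FHT-1015 in 22RV1, 41.5% and 22.0% in 92-1, and 22.6% and 13.2% in RD. It was 61.0% in both groups of A375 and 18.9% in both groups of MV411. In DU4475 it was 10.1% and 15.1%, and in HCT116 22.0% and 26.4%.

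A promoter was counted as lost where all 3 DMSO samples of a line had a call and no FHT-1015 sample did. This held for PCDHB11 and PCDHGA12 in 22RV1, of 9 cluster promoters called in all 3 DMSO samples, where 3.37% of all such promoters were lost. It also held for PCDHGC3 in 92-1, of 2, where 5.03% were lost; 2 of the 3 treated samples listed a weaker peak there, below the strict threshold. None was lost of 2 in RD (6% of such promoters were), 3 in A375 (0.275%), 1 in DU4475 (0.347%), 1 in HCT116 (0.498%) and 2 in MV411 (2.38%). No cluster promoter was gained in any line, where 0.164% of all promoters were gained in A375, 0.373% in HCT116, 0.0316% in MV411, 0.0126% in 22RV1 and in DU4475, and 0% in 92-1 and RD. In the lenient lists of all lines, PCDHB11 was called in 11 DMSO and 10 FHT-1015 samples and PCDHGA12 in 6 and 7. These lenient counts are not split by line, so a loss here means falling below the strict threshold. Promoter sequences for PCDHB11 and PCDHGA12 were not used here.

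Strict summits of the span were split between gene starts and places farther away. Of 340 strict summits in the 21 DMSO samples, 152 (44.7%) lay within 500 bp of a cluster gene start, 25 (7.35%) lay 500 to 3000 bp into a gene and 163 (47.9%) were farther away. Of 252 in the FHT-1015 samples, 119 (47.2%) lay within 500 bp, 33 (13.1%) into a gene and 100 (39.7%) farther away. In DMSO, 22RV1 had 51 summits within 500 bp and 23 farther away and A375 had 40 and 26, while 92-1 had 20 and 23, RD 17 and 24, HCT116 6 and 9, MV411 11 and 33, and DU4475 7 and 25. With FHT-1015, A375 had 62 within 500 bp and 28 farther away, and its summits 500 to 3000 bp into a gene numbered 14 in DMSO and 27 with FHT-1015. Such summits numbered 4 in DMSO and 5 with FHT-1015 in 22RV1, and 0 and 1 in DU4475. They numbered 1 and 0 in 92-1, 3 and 0 in RD, 1 and 0 in HCT116, and 2 and 0 in MV411. The higher pooled number with FHT-1015 thus came mainly from A375.

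**Figure D4:**
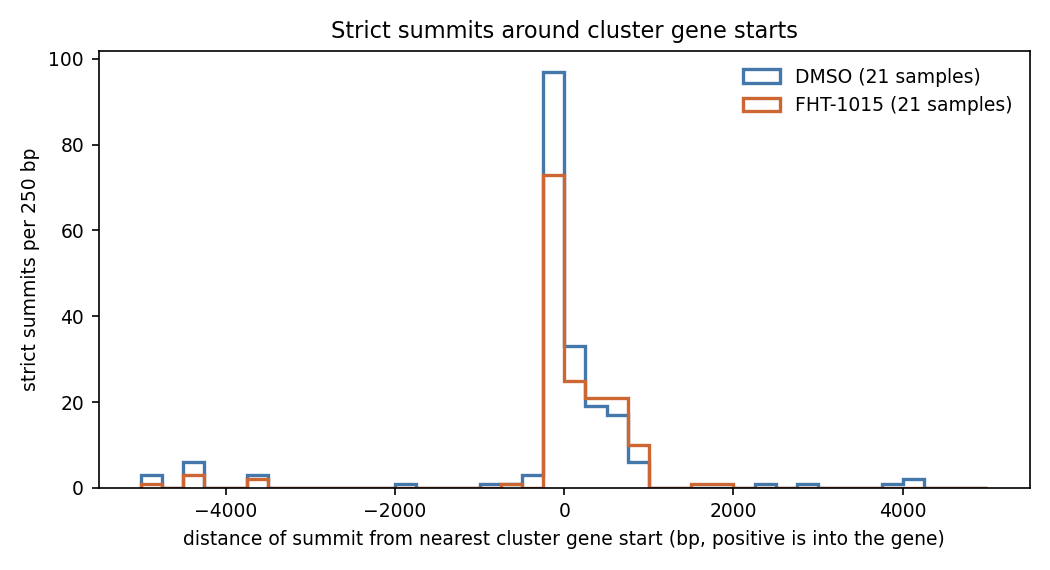
Strict summits per 250 bp (y axis) by distance from the nearest cluster gene start (x axis, bp, positive into the gene), summed over the 21 samples of each treatment; summits beyond 5000 bp are not drawn. Both treatments peak just before the start and have a shoulder up to 1000 bp after it. Of the summits 500 to 3000 bp into a gene, A375 gave 14 of 25 in DMSO and 27 of 33 with FHT-1015.

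Some genes had a region at the start and another inside the gene. When strict peaks of all samples were merged into regions of 500 bp, 13 of 15 alpha genes had a region at the start, at a median of 56 bp before it, and 10 of these 13 also had a region 525 to 630 bp after it. Of 11724 protein-coding genes with a region at the start, 30.1% had another 500 to 1000 bp after it. The alpha genes were not tested against this share. The 10 were PCDHA2, PCDHA4, PCDHA5, PCDHA6, PCDHA7, PCDHA8, PCDHA9, PCDHA11, PCDHA13 and PCDHAC2. The inner regions lay at a median of 593 bp. Merged regions cannot overlap, so a second region lies at least 500 bp from the first. The inner regions of PCDHA5, PCDHA8 and PCDHA13 were each called in 1 sample only, an FHT-1015 sample of A375. The start regions of PCDHA5, PCDHA7 and PCDHA8 were also called in 1 FHT-1015 sample of A375 only. That of PCDHA10 was called in 1 FHT-1015 sample of HCT116 only. Among beta genes 4 of 11 with a start region had an inner region, 767 to 890 bp after the start. Of 14 gamma genes with a start region inside the gamma group, 1 had an inner region, PCDHGC3 at 688 bp. PCDHGA8 had an inner region at 822 bp, called in 1 FHT-1015 sample of 22RV1, and no start region. Alpha variable exons are known to carry a CTCF site at the promoter and another inside the exon; the sequences here end 50 bases after the start, so the inner regions were not searched for it.

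A375 held most of the inner alpha regions: 7 of 10 were called in a DMSO sample and 10 of 10 in an FHT-1015 sample. Summits 500 to 1000 bp after an alpha start numbered 4, 7 and 0 in the DMSO samples of A375 and 4, 13 and 5 with FHT-1015, which overlapped. In MV411 none was called. The inner region of PCDHAC2 was called in 3 of 3 DMSO and 3 of 3 FHT-1015 samples of DU4475. Near-identical exons can share reads, and no source used here tells how reads mapping to several genes were treated, so a peak inside an exon may be missed or misplaced.

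The merged lists gave 93 regions in the span, of 315188 in the genome. Of these, 39 lay within 500 bp of a cluster gene start. Of the 79 called in a DMSO sample, 54.4% were called in 1 line only, against 70.1% of such regions genome-wide. By the exact stratified test over lines, adjusted over all regions, 0 of 93 cluster regions were called less often with FHT-1015 (0.00127% of all regions were) and 0 more often (0%). At an unadjusted p below 0.05, 3 of 93 (3.23%) were called less often, where 2.82% of all regions were, and 0 more often, where 0.0197% were. The share in the cluster was near that of the genome.

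These 3 regions were all away from promoters. The region chr5:141508712-141509211, 19.9 kb after the start of PCDHGC5 on the side of the gamma group where the shared exons lie, was called in 9 of 21 DMSO and 1 of 21 FHT-1015 samples (exact stratified p = 0.00362, adjusted 0.614). It was called in 3 of 3 DMSO samples of MV411 and of RD, and in no FHT-1015 sample of either. The region chr5:140986111-140986610, 19.9 kb after the start of PCDHAC2, was called in 6 DMSO samples, 3 each of 92-1 and RD, and in no FHT-1015 sample (exact stratified p = 0.005, adjusted 0.614). The region chr5:141040097-141040596 was called in 12 DMSO and 4 FHT-1015 samples (exact stratified p = 0.006, adjusted 0.645), with 3 DMSO and 0 FHT-1015 samples in 22RV1 and 3 of each in A375.

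The last of these lay 28.0 kb after the end of the alpha genes, close before another region of the gap. That neighbour, chr5:141041007-141041506, was called in 18 DMSO and 17 FHT-1015 samples, in 3 of 3 DMSO samples of every line except HCT116, where it was in 0 of 3 DMSO and 2 of 3 FHT-1015 samples. With the TAF7 region it was the region of the span called in most DMSO samples. The known enhancer HS5-1 lies behind the alpha genes, but its coordinates were not used here and neither region was matched to it. The promoter region of TAF7, chr5:141320546-141321045, was called in 18 DMSO and 19 FHT-1015 samples, and SLC25A2 in none at either gene end.

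Regions were also followed line by line. Lost regions (all 3 DMSO samples, no FHT-1015 sample) numbered 4 of 14 in 22RV1, where 26.4% of all regions of the genome open in all 3 DMSO samples were lost. They numbered 3 of 9 in RD (20.8% genome-wide), 2 of 4 in 92-1 (40.3%), and 1 of 9 in MV411 (32.7%). In A375 they numbered 0 of 8 (7.49%), in DU4475 0 of 6 (6.65%) and in HCT116 0 of 3 (5.85%). Of the 10 losses, 4 were within 500 bp of a gene start and 6 were farther away. A single region was gained in A375, chr5:141077790-141078289, 16.6 kb before PCDHB2, of 15 open in all 3 FHT-1015 samples (0.791% genome-wide). Another was gained in HCT116, beside the TAF7 start, of 4 (2.1% genome-wide). No cluster region was gained in 92-1 (0.149% genome-wide), 22RV1 (0.399%), RD (0.0687%), DU4475 (0.121%) or MV411 (0.577%). In the lenient lists lost regions numbered 1 of 27 in 22RV1 (17.98% genome-wide), 2 of 20 in RD (15.95%) and 2 of 18 in 92-1 (35.12%). They numbered 2 of 17 in MV411 (19.69%), 1 of 47 in A375 (9.018%), 1 of 11 in DU4475 (6.442%) and 0 of 8 in HCT116 (6.42%).

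**Figure D5:**
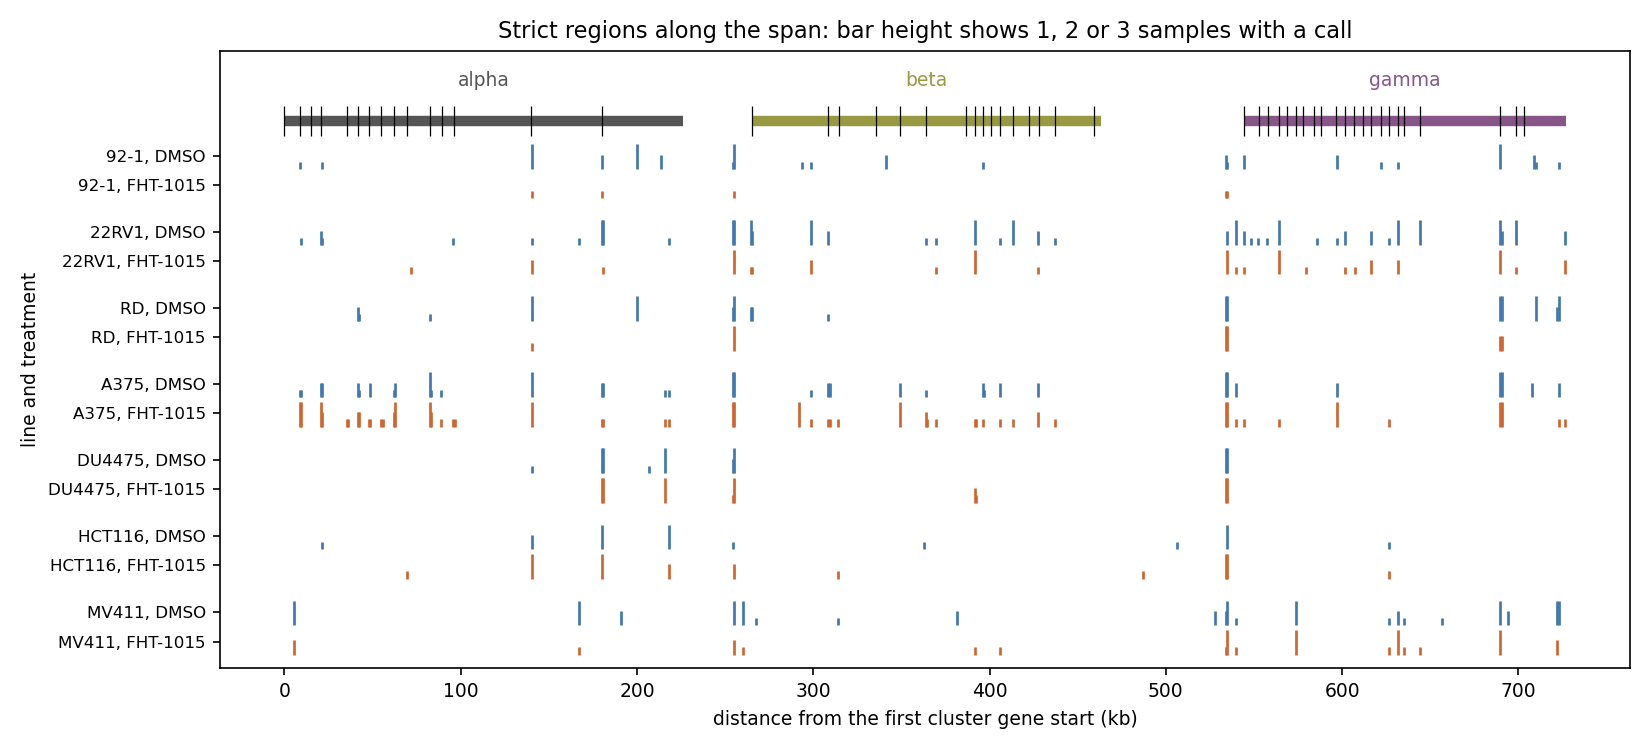
Strict regions along the span by distance from the first gene start (x axis, kb), for each cell line and treatment (rows); bar height gives 1, 2 or 3 samples with a call, thick bars at the top the alpha, beta and gamma groups and thin black ticks the gene starts. Calls in DU4475, HCT116 and MV411 are sparse within the gene groups, and the regions behind the alpha genes and at TAF7 recur in most lines.

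Regulators and relatives of the cluster were also followed. Promoters of 21 genes for CTCF, cohesin and its loaders, DNA methylation and silencing were examined. All but DNMT3B were called in 17 or more of 21 DMSO samples, and none was lost or gained in a line. DNMT3B, a DNA methyltransferase, was called at this start in no sample. Of 12 non-clustered protocadherins, which lie elsewhere and are single genes, PCDH9 was called in 15 DMSO and 15 FHT-1015 samples. PCDH18 was called in 10 DMSO and 3 FHT-1015 samples and met the rule for a loss in 92-1 and in RD; 22RV1 had 3 of 3 samples in both groups. PCDH10 was called in 14 DMSO and 9 FHT-1015 samples, and PCDH19 in 11 and 7. PCDH7, PCDH8 and PCDH11X were each called in 4 DMSO samples, and in 1, 2 and 3 FHT-1015 samples. In 22RV1, PCDH8 and PCDH11X were called in 3 of 3 DMSO samples. PCDH17 was called in 2 DMSO and 1 FHT-1015 samples and PCDH20 in 1 DMSO sample, all of 22RV1. PCDH10 and PCDH20 were searched at both gene ends. PCDH1, PCDH12 and PCDH15 were called in none. Of the neural genes RBFOX3, MAP2, ELAVL4 and SYT1, RBFOX3 was called in 2 DMSO samples and SYT1, a synaptic vesicle protein, in 14. MAP2 was called in 4 DMSO samples, 3 of RD and 1 of MV411, and ELAVL4 in 5, 3 of 22RV1 and 2 of 92-1.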

How the data were processed

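The 42 samples gave 1 peak list each. Per the submitters' processing notes the build was hg38 and the tools included Bowtie2, Picard, MACS2, limma and HOMER; the notes give neither versions nor roles. Per the labels' protocols, libraries followed a published ATAC-seq protocol and were size-selected with beads. The deposited lists give each peak a fold enrichment over local background (a ratio) and the −log10 of a p-value and of a q-value, as the authors' peak caller wrote them; they hold no read counts. The peak score column of the authors' lists was not used. In each deposited list the smallest −log10 p was 2.00 to 2.04, so the lists hold weak peaks, and depth per sample is not recorded in them.

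Strict peaks had a −log10 q of at least 5 in the authors' values. Genes came from RefSeq (GRCh38.p14). A promoter was called where a strict summit lay within 500 bp of a gene start. Group means of log2(n + 1), of shares per 10000 peaks and of promoter numbers were compared within lines and averaged over lines, with treatment labels permuted within lines (100000 draws, two-sided). Strict peaks were merged by decreasing strength into regions of 500 bp, called in a sample by an overlap of at least 100 bp, and tested by an exact test stratified by line with Benjamini-Hochberg adjustment over all regions at 0.05. Thinned lists were made by reducing the pileup of each peak to a common background within a line; 92-1 was left out of these. Lines were compared in pairs by exact permutation. At most 6.37% of intervals were identical between any of the 105 pairs of samples of 1 line, so all 42 lists were kept as separate samples. Statistical code was tested on simulated data.

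Genes named with values were the C-type genes, the 3 genes of each group called in most DMSO samples, and the regions with the smallest p or the most calls; other genes are named as singled out. The members and lists were chosen with earlier results of these data known. Python 3.11.15, numpy 2.4.6, pandas 2.3.3, scipy 1.17.1 and matplotlib 3.10.9 were used. MV411 is not among the 6 lines named in the design text and was kept. Alternatives were other thresholds, the 10000 strongest peaks, thinning, other promoter windows, and leaving out each sample or line.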

Additional observations from a re-analysis of the deposited data

How the results depend on the processing

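The p-values over lines are from permutation tests. In the lenient lists taken whole, the log2 differences over lines were −0.20 for the span (permutation p = 0.116) and −0.16 for gamma (p = 0.208), and among the 10000 strongest peaks −0.13 (p = 0.476), −0.15 (p = 0.299) and, for beta, 0.095 (p = 0.499). Thinning left gamma at −0.14 (permutation p = 0.467), and leaving out 92-1 or RD left it at −0.35 (p = 0.118) or −0.50 (p = 0.0592). The alpha difference passed under all 13 alternatives beyond leaving out samples (permutation p up to 0.0387).

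Cluster peaks per 10000 changed direction with a −log10 q of at least 10 (−0.40), among the 10000 strongest (−0.38), without A375 (−0.56), without HCT116 (−0.051), and without 92-1 FHT-1015 replicate 1 (−0.056), A375 DMSO replicate 3 (−0.065) or A375 FHT-1015 replicate 2 (−0.077). Without 92-1 the difference was 0.66 (permutation p = 0.05). The difference in called promoters was −2.19 (permutation p = 0.0461) with a −log10 q of at least 1.3 and −2.56 (p = 0.00518) without A375.

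Leaving out 1 sample gave −0.88 to −0.69 for the span, −0.94 to −0.75 for alpha, −0.38 to −0.14 for beta, −0.71 to −0.54 for gamma, −0.077 to 0.14 for the share per 10000 and −2.31 to −1.02 for promoters. The lowest adjusted p over pairs of lines then ranged from 0.0262 (without HCT116 DMSO replicate 1) to 0.158 for the span and from 0.0420 (without RD DMSO replicate 3, or MV411 FHT-1015 replicate 2) to 0.105 for the share. Genes open in all DMSO samples of a line numbered 12 to 20, with 20 when A375 DMSO replicate 3 was left out. Lost regions numbered 10 to 14 and gained regions 2 to 4, with 4 when A375 DMSO replicate 1 was left out.

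The remaining alternatives were chosen after seeing the data. Within lines, the log2 difference changed direction in 22RV1 (0.20 in the lenient lists, 0.23 with a −log10 q of at least 1.3), RD (0.67 among the 10000 strongest), DU4475 (0.18 lenient, 0.33 strongest) and HCT116 (−0.089 lenient, −0.28 at 1.3, −0.11 at 10, −0.14 strongest). In A375 leaving out 1 sample gave −0.10 (without DMSO replicate 3) to 0.92. Genes open in all DMSO samples of a line numbered 38 in the lenient lists, 34 at 1.3, 7 at 10, 1 among the strongest and 6 after thinning. Lost regions numbered 5 after thinning, and gained regions 5 in the lenient lists and 0 after thinning. The cause of these changes was not tested.

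Same-numbered samples of a line did not deviate together: 0 of 21 pairs had a correlation over 0.1, and 11 of 42 samples correlated best with their own number. With the replicate number as a block the span gave a permutation p = 0.00763, alpha p = 0.00442, beta p = 0.389, gamma p = 0.0207, the share p = 0.890 and promoters p = 0.265, with differences of −0.75, −0.83, −0.23, −0.61, 0.062 and −1.52. By the stratified test 0 cluster regions passed after adjustment in every alternative, and 6 less and 1 more often at an unadjusted p below 0.05 in the lenient lists. The lists hold no read depth, so a promoter without a strict peak is not shown to be closed.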
